A study of Mus musculus with 2 samples.

Results

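The Hox genes were described in brown preadipocytes at D0 and in brown adipocytes at D7. They were the rows of the expression table whose symbol is Hox followed by a cluster letter from a to d and a number, and 39 of the 23361 genes with values met this rule. The study compared the transcriptomes of these cells to find regulators of adipogenesis, and sequenced a single RNA-Seq library from each stage, 2 in total. Its cells came from interscapular brown adipose tissue, the fat pad between the shoulder blades, of newborn mice of the strain C57BL/6 in the labels and C57BL/6J in the paper, and the paper's methods state that pups of either sex were born to a single dam, without stating whether their cells were pooled. The sample labels call the cells primary cultures, whereas the paper's methods describe immortalization with a retroviral large T construct, and both stages share this origin. Per the labels, cells were grown in 20% serum and plated in 10% serum with 1 nM T3 and 0.1 μM insulin before D0. They then received dexamethasone at 2 μg/ml with 0.125 mM indomethacin and IBMX at 0.5 mM for 2 days, and the medium without these 3 agents until D7.

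Hox genes encode transcription factors that bind DNA through a homeodomain. In the mouse they lie in 4 clusters, Hoxa to Hoxd, and genes with the same number in different clusters are paralogues that arose by duplication of an ancestral cluster. During development, low-numbered genes become active in anterior parts of the body axis and high-numbered genes in more posterior parts, and cells of the trunk mesenchyme, including fat precursors and fibroblasts, keep such a pattern after birth and in culture. Below, genes numbered 1 to 3 are called anterior, 4 to 8 central and 9 to 13 posterior.

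Expression is given as FPKM, fragments per kb of transcript, scaled to the size of the library, as deposited by the authors. FPKM is a level per length, so genes within a library can be compared with each other. Ratios are D7 over D0 with no pseudocount added, and a gene is called higher at a ratio of at least 2.0 and lower at a ratio of at most 0.5. The denominator of FPKM was 21472759 fragments in the D0 library and 18264971 in the D7 library, both recovered from the steps between low values. The ratio of a gene with fragments in both libraries has a 95% interval from the exact Clopper-Pearson method on the recovered fragments. Such intervals reflect counting error alone, and what they compare is a pair of libraries rather than the stages. With no replicates there is no p-value, and because the samples are bulk cultures, fewer cells of a type and less RNA per cell cannot be told apart.

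Of the 39 Hox genes, 24 reached an FPKM of 1 in at least 1 library, 23 of them at D0 and 22 at D7. Another 7 were listed at 0 in both libraries, 1 at D0 only and 2 at D7 only. At D0, 9 genes reached an FPKM of 10, and at D7 only 3 did: Hoxc6, Hoxb6 and Hoxb9. The 39 genes summed to 236 FPKM at D0 against 136 at D7 (ratio 0.576). Of the 39 genes, 14 overlap an annotated gene on the opposite strand, and whether counting used strand is not given in the sources used here, so reads of such genes and of their antisense partners may be mixed. Across the 24 genes the levels kept much of their order, with a Spearman rho of 0.89 between the 2 libraries, given as a description of genes that share both libraries.

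Levels differed with the paralogue number. All 15 central genes reached an FPKM of 1, compared with 6 of 8 anterior genes and 3 of 16 posterior genes. In every cluster the level dropped between neighbouring numbers: after Hoxa7 in cluster a, after Hoxb9 in cluster b, and after Hoxc9 and Hoxd9 in clusters c and d. Among the 12 genes numbered 10 to 13, none reached an FPKM of 1 in either library, and the highest was Hoxc13.

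**Figure D1:**
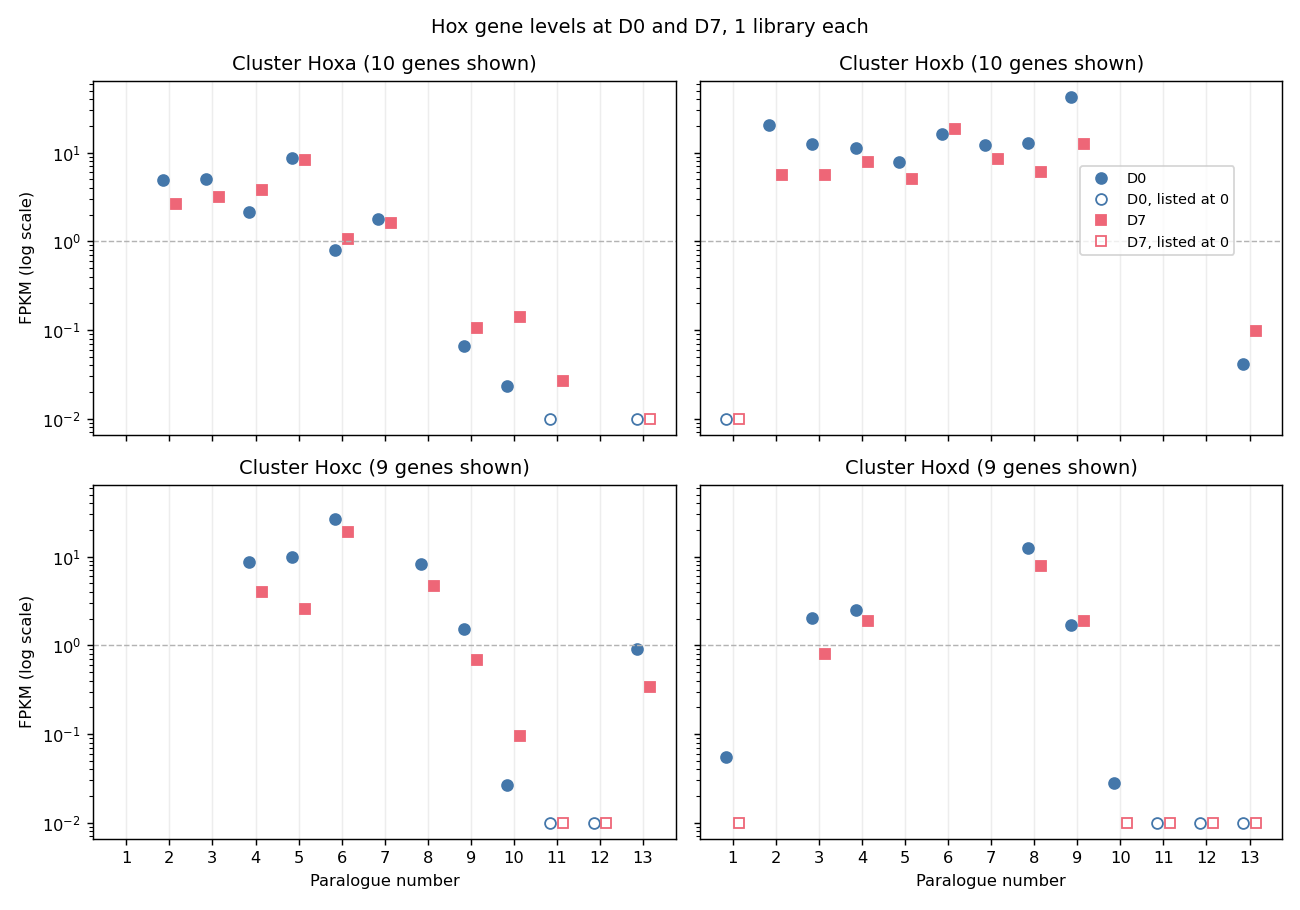
FPKM (log scale) of 38 Hox genes against its paralogue number, 1 panel per cluster, with circles for D0 and squares for D7, 1 library each. Open symbols at the bottom stand for genes listed at 0, the dashed line marks an FPKM of 1, and none of the genes numbered 10 to 13 lies above it.

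Hoxd9 and Hoxd10 are neighbours on either side of this step. The level of Hoxd9 (ENSMUSG00000043342.9, chromosome 2, 74697727 to 74700208, plus strand, mm10) was 1.70 FPKM at D0 against 1.86 at D7 (ratio 1.09, 95% interval 0.767 to 1.55). Hoxd10 (ENSMUSG00000050368.4, chromosome 2, 74691924 to 74695105, plus strand) had an FPKM of 0.0279 at D0, which is 1 fragment, and a value of 0 at D7, where 3 fragments would be an FPKM of 0.0985. Both promoters are shown because the step in level falls between these genes. They cover 250 bases before and 50 after the annotated start in RefSeq on GRCm38.p6, 5′ to 3′, with each CpG in capitals. Hoxd9 is at chr2:74697513-74697812 and Hoxd10 at chr2:74691641-74691940, both on the plus strand.
Hoxd9 promoter: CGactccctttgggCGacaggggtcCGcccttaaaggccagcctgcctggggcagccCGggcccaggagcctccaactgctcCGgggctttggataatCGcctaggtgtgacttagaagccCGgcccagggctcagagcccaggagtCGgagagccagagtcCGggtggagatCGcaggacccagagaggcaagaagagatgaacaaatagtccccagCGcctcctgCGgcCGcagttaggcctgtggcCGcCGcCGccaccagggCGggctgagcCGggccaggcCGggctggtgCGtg
Hoxd10 promoter: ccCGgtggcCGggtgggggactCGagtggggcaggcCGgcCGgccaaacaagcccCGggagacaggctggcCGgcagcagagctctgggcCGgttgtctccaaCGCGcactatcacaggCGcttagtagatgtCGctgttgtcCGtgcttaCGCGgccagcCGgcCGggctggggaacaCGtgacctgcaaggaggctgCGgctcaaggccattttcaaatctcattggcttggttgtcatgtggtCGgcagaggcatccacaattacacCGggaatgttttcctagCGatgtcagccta
The Hoxd9 window held 20 CpG and the Hoxd10 window 22, so the number of CpG was similar on both sides of the step. Promoters of 22 Hox genes, 24 windows in all, were found in the table of sequences. Their median was 14.5 CpG per window, compared with 7 over all 32851 windows. Windows of 12 Hox genes with an FPKM of at least 1 in a library had a median of 13.5 CpG. The 12 windows of the other Hox genes, from 10 genes, had 18. Promoters of Hoxb2, Hoxb6, Hoxb9 and Hoxc6, which had the highest levels at D0, were not in the table of sequences. These medians therefore do not cover the most expressed Hox genes. The letters TATAAA, read on both strands, were in 4 of the 24 Hox windows (16.7%) and in 13.6% of all windows. The letters TGATNNAT, a core of joint Hox and Pbx binding sites, were in 4 of 24 Hox windows (16.7%) and in 8.85% of all windows on either strand. A match of letters in such a window describes the sequence only.

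Of the 29 Hox genes above 0 in both libraries, 9 were lower at D7, 3 were higher and 17 stayed within 2.0-fold. Over all 14986 genes above 0 in both libraries, 13.2% were lower and 18.5% were higher, compared with 31.0% and 10.3% of the Hox genes. The 3 higher Hox genes, Hoxa10, Hoxb13 and Hoxc10, rested on at most 6 fragments in a library, and each interval included 1. Among the 24 genes with an FPKM of at least 1 in a library, 8 were lower (33.3%) and 0 were higher. The background at this level was 11.9% lower and 15.6% higher, of 11967 genes. The median log2 ratio of these 24 genes was -0.67, and that of the 11967 genes was -0.03. No test sets the Hox genes apart from other genes here, since there is 1 library per stage.

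Of these 24 genes, 19 had a ratio below 1 and 5 above 1. The 95% interval lay below 1 for 16 genes, above 1 for 1 gene and included 1 for 7. For 3 genes, Hoxb2, Hoxb9 and Hoxc5, the whole interval lay under 0.5.

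**Figure D2:**
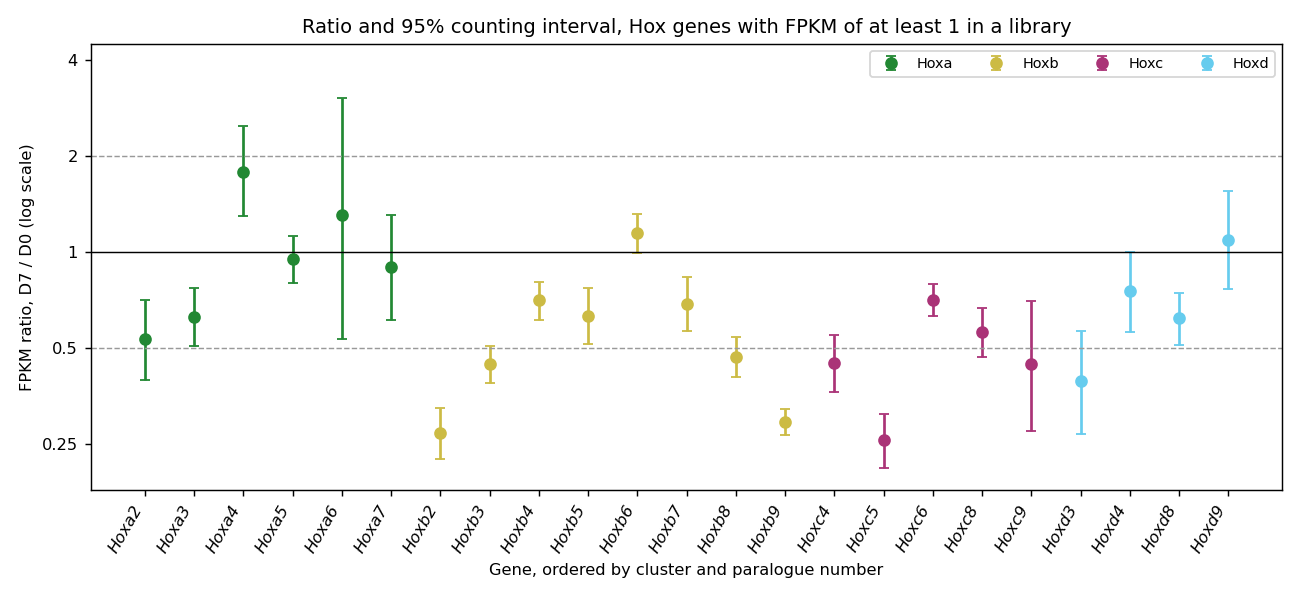
Ratio of FPKM at D7 to D0 (log scale) for 23 Hox genes with an FPKM of at least 1 in a library, ordered and coloured by cluster, with exact 95% intervals that cover counting error only. Dashed lines mark 2.0-fold, and the intervals of Hoxb2, Hoxb9 and Hoxc5 lie wholly under the lower of them, while that of Hoxa4 lies above 1.

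Cluster b, on chromosome 11, carried the largest share of Hox expression. Its summed FPKM was 136 at D0 and 69.7 at D7 (ratio 0.514), which was 57.5% of the Hox total at D0 and 51.3% at D7. Of its 10 genes, 8 reached an FPKM of 1 and 4 were called lower. Hoxb1, at 0 in both libraries, could not be called. Over all genes above 0 in both libraries, 13.2% were lower.

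Hoxb9 (ENSMUSG00000020875.9, chromosome 11, 96271457 to 96276595, plus strand), which takes part in patterning of the thoracic ribs, had the highest FPKM of all Hox genes at D0. It was 42.2 at D0, from 2283 fragments, and 12.4 at D7, from 572 fragments. The ratio was 0.295 (0.268 to 0.323), so that Hoxb9 was 3.39-fold lower at D7. It fell from the first to the third place among the Hox genes.

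The other 3 paralogues numbered 9 had far lower levels at D0. Hoxa9, known for its role in blood stem cells and leukaemia, had an FPKM of 0.0668 at D0 (3 fragments) and 0.105 at D7 (4 fragments). Hoxc9, which gives thoracic motor neurons their identity, had 1.51 FPKM at D0 against 0.677 at D7, and its ratio of 0.448 (0.276 to 0.705) was past the threshold. Together with Hoxd9, given above, they make up the group numbered 9. The end of the homeodomain, with its DNA-contacting helix, is encoded by the last 90 bases of the homeobox. These bases are shown for Hoxb9 and Hoxc9 as an example of a stretch conserved between paralogues. They are from the coding strand of the named GENCODE M21 transcripts, 5′ to 3′, with capitals for each base of Hoxc9 that differs from Hoxb9.
Hoxb9: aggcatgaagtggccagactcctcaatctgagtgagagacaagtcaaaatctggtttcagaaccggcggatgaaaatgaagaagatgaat
Hoxc9: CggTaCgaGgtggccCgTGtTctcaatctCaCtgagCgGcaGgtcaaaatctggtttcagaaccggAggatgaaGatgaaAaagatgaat
In these 90 bases, Hoxc9 differed from Hoxb9 at 16. Anywhere in the transcripts, the fewest mismatches in 90 bases were 12 between Hoxb9 and Hoxc9, and 9 between Hoxb9 and Hoxd9. The reads were 90 bases long and up to 5 mismatches were allowed. Of 741 pairs of Hox transcripts, 4 had any window of 90 bases within 5 mismatches. These were Hoxa3 with Hoxd3, Hoxa3 with Hoxb3, Hoxb3 with Hoxd3, and Hoxa6 with Hoxa7, so some reads of these 5 genes could have been placed on the other member of a pair. Hoxa3 and Hoxd3 shared the most, with 69 of the 2502 windows of the Hoxa3 transcript. Over the whole homeobox of 180 bases, paralogues with the same number were identical at a median of 80.6% of bases and other pairs at 60.6%.

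Hoxb2 (ENSMUSG00000075588.6, chromosome 11, 96350525 to 96354012), a gene of hindbrain patterning, had 20.5 FPKM at D0 against 5.56 at D7 (ratio 0.272, interval 0.225 to 0.325). Its paralogue Hoxa2, which specifies the skeleton of a branchial arch, had 4.93 FPKM at D0 against 2.63 at D7 (ratio 0.533, interval 0.397 to 0.708). Both genes numbered 2 were thus lower at D7, Hoxb2 past the threshold and Hoxa2 short of it.

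Hoxb3 (chromosome 11, 96323326 to 96347930), which acts with its paralogues in the pharynx and neck, had 12.6 FPKM at D0 against 5.62 at D7 (ratio 0.446, interval 0.390 to 0.509). Hoxb8 (chromosome 11, 96281905 to 96285315), which can hold myeloid progenitors in an immature state, had 12.9 FPKM at D0 against 6.07 at D7 (ratio 0.471, interval 0.407 to 0.542). Both were called lower, and the upper ends of both intervals were above 0.5. Hoxb2 and Hoxb3 overlap the antisense gene Hoxb3os.

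The other central genes of the cluster lay within 2.0-fold. Hoxb4, known for expanding blood stem cells when overexpressed, had 11.1 FPKM at D0 against 7.88 at D7 (ratio 0.707, interval 0.616 to 0.809). Hoxb5, which helps to place the shoulder girdle, had 7.87 FPKM at D0 against 4.98 at D7 (ratio 0.633, interval 0.517 to 0.771). Hoxb7 had 12.2 FPKM at D0 against 8.41 at D7 (ratio 0.691, interval 0.566 to 0.837). All 3 intervals lay below 1.

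Hoxb6 (ENSMUSG00000000690.5, chromosome 11, 96292476 to 96301569) lies between Hoxb5 and Hoxb7 on the chromosome, and its ratio was above those of both. It had 16.2 FPKM at D0 against 18.6 at D7 (ratio 1.15, interval 0.994 to 1.32). This interval included 1 and did not overlap those of Hoxb5 and Hoxb7. Hoxb5 and Hoxb6 both overlap the antisense gene Hoxb5os. Hoxb6 was behind only Hoxc6 among the Hox genes at D7, and behind Hoxb9, Hoxc6 and Hoxb2 at D0. At the ends of the cluster, Hoxb1 was listed at 0 in both libraries, and Hoxb13, a gene of the prostate and hindgut, had 1 fragment at D0 and 2 at D7.

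Cluster c, on chromosome 15, was the next in summed FPKM, with 56.0 at D0 and 31.1 at D7 (ratio 0.556). It has no genes numbered 1 to 3. Of its 9 genes, 4 were called lower, the same number as in cluster b, 1 was called higher and 2 lay within 2.0-fold. The other 2 were at 0 in both libraries and could not be called. The share lower was 13.2% of all genes above 0 in both libraries.

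Hoxc6 (ENSMUSG00000001661.5, chromosome 15, 102998257 to 103011881), a marker of the lower cervical and thoracic level, had 26.6 FPKM at D0 against 18.9 at D7. It was the second highest Hox gene at D0 and the highest at D7, with a ratio of 0.709 (0.631 to 0.793). Hoxc5 (ENSMUSG00000022485.3, chromosome 15, 102967443 to 103017429), active at the cervical level, had 9.84 FPKM at D0 against 2.54 at D7. Its ratio of 0.258 (0.211 to 0.312) was the lowest among the 24 genes. The annotated span of Hoxc5 overlaps Hoxc6, Hoxc8, Hoxc9 and Hoxc10 on the same strand. In the deposited data each of those genes has a locus of its own, and the locus of Hoxc5 holds 2 rows. The annotation alone thus does not show that exons were shared in the counting.

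Hoxc4 (chromosome 15, 103018934 to 103036852) had 8.78 FPKM at D0 against 3.95 at D7 (ratio 0.450, interval 0.364 to 0.552). Hoxc8, which has been described as a repressor of the brown fat programme in white fat precursors, had 8.29 FPKM at D0 against 4.66 at D7 (ratio 0.561, interval 0.468 to 0.669). Only Hoxc4 of these passed the threshold, although the interval of Hoxc8 also lay below 1.

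Hoxc13 (ENSMUSG00000001655.6, chromosome 15, 102921103 to 102928814), which regulates keratin genes in hair and nails, stood apart from the other genes at the posterior end. Its FPKM was 0.909 at D0, from 44 fragments, and 0.340 at D7, from 14 fragments (ratio 0.375, interval 0.189 to 0.695). The neighbouring Hoxc12 and Hoxc11 were listed at 0 in both libraries, and Hoxc10, a posterior gene of hindlimb and subcutaneous fat, had 1 fragment at D0 and 3 at D7.

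Cluster a, on chromosome 6, had the ratio of sums nearest to 1 among the 4 clusters. Its summed FPKM was 25.1 at D0 and 22.5 at D7 (ratio 0.897), and 0 of its genes were called lower. With so few genes, a count of 0 is near the 13.2% lower among all genes above 0 in both libraries. Its share of the Hox total was 10.7% at D0 and 16.6% at D7.

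Hoxa4 (ENSMUSG00000000942.10, chromosome 6, 52189671 to 52191753, minus strand), which patterns cervical vertebrae, had an FPKM of 2.14 at D0, from 65 fragments, and 3.82 at D7, from 99 fragments. The ratio was 1.79 (1.30 to 2.49), the only interval of the 24 genes that lay above 1. Its 3 paralogues numbered 4 all had ratios below 1, at 0.707 for Hoxb4, 0.450 for Hoxc4 and 0.754 for Hoxd4. Hoxa4 shares its deposited locus with Hoxa3, Hoxa5 and Hoxa6 and overlaps the antisense transcript Hoxaas3, as do Hoxa3, Hoxa5, Hoxa6 and Hoxa7, so its value is less certain than those of genes with a locus of their own.

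Hoxa5 (ENSMUSG00000038253.6, chromosome 6, 52201754 to 52204587), needed for lung and trachea development, was the highest gene of the cluster. It had 8.75 FPKM at D0 against 8.33 at D7 (ratio 0.952, interval 0.804 to 1.12). Hoxa3, which is needed for the thymus and parathyroid, had 5.06 FPKM at D0 against 3.18 at D7 (ratio 0.627, interval 0.508 to 0.774). Of these, only the interval of Hoxa3 lay below 1.

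Hoxa6, a gene of the thoracic vertebrae, had 0.806 at D0 (12 fragments) and 1.06 at D7 (13 fragments), and its ratio was 1.31 (0.536 to 3.05). Hoxa7, another gene of the thoracic vertebrae, had 1.79 FPKM at D0 against 1.61 at D7 (ratio 0.900, interval 0.614 to 1.31). Both intervals included 1. With other scalings of the libraries the ratios of Hoxb6 and Hoxd9 lay on either side of 1, so no direction is given for them.

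At the posterior end of the cluster, Hoxa10, known from the uterus and limbs, had 1 fragment at D0 against 6 at D7 (ratio 5.89) with an interval from 0.856 to 324. Hoxa11 had 0 fragments at D0 and 1 at D7, and Hoxa13, a gene of the digits and the urogenital tract, was listed at 0 in both. A difference in Hoxa10 was not detectable at this depth.

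Cluster d, on chromosome 2, had the lowest sums, 19.0 at D0 and 12.4 at D7 (ratio 0.654). Hoxd8 (ENSMUSG00000027102.4, chromosome 2, 74704615 to 74707933), a gene of the trunk, held most of this, with 12.6 FPKM at D0 against 7.85 at D7 and a ratio of 0.621 (0.513 to 0.745). It lies beside Hoxd9, whose level was much lower.

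Hoxd3 (chromosome 2, 74711927 to 74748442), which patterns the uppermost vertebrae, had 2.04 FPKM at D0 against 0.805 at D7 (ratio 0.396, interval 0.270 to 0.567), and was the only gene of the cluster called lower. Hoxd4, also of the cervical level, had 2.50 FPKM at D0 against 1.89 at D7 (ratio 0.754, interval 0.564 to 1.00). Hoxd3 and Hoxd4 share a deposited locus and overlap on the same strand, and both of them and Hoxd8 overlap the antisense gene Hoxd3os1. Hoxd1 had 2 fragments at D0 and none at D7, and the limb genes Hoxd11, Hoxd12 and Hoxd13 were listed at 0 in both libraries. For Hoxd13, the level of 3 fragments is 0.0606 FPKM at D0 against 0.0714 at D7.

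Summed by region, the anterior genes had 46.7 FPKM at D0 against 19.4 at D7 (ratio 0.416). The central genes had 142 and 101 (ratio 0.706), and the posterior genes 46.5 and 15.8 (ratio 0.339). Central genes thus made up 60.4% of the Hox total at D0 and 74.1% at D7. The posterior sum was mostly Hoxb9 and the anterior sum mostly Hoxb2 and Hoxb3, so these shares rest on few genes. Across the 24 genes the log2 ratio and the paralogue number had a Spearman rho of 0.07, as a description of genes that share both libraries.

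By paralogue number, the largest sums at D0 were those of number 9, at 45.5, and number 6, at 43.6. At D7 the sum of number 9 was 15.1 and that of number 6 was 38.6, with ratios of 0.332 and 0.884. Number 2 fell in a like proportion to number 9, from 25.4 to 8.19 (ratio 0.323). Number 6 made up 28.4% of the Hox total at D7, compared with 18.5% at D0.

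**Figure D3:**
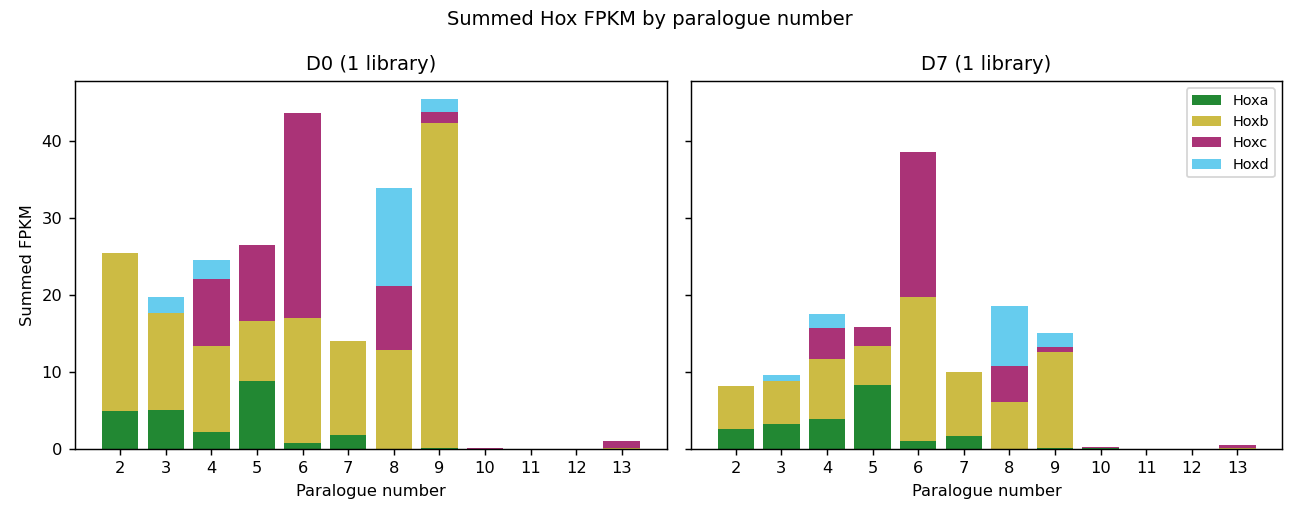
Summed FPKM of Hox genes numbered 2 to 13 by paralogue number at D0 (left) and D7 (right), 1 library each, with the colours of the bars for the 4 clusters. The bar of number 9 is 45.5 high at D0 and 15.1 at D7, and that of number 6 is 43.6 and 38.6.

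The table also held 13 other rows within the clusters or 50 kb of their ends. Mira, an RNA whose row lies within the annotated span of Hoxa7, had 4.37 FPKM at D0 against 4.45 at D7 (ratio 1.02). Gm53, a long noncoding RNA between Hoxb13 and Hoxb9 that was chosen after its values were seen, had 18.2 FPKM at D0 against 9.57 at D7 (ratio 0.526). The noncoding rows 2700086A05Rik and 1700109F18Rik are the antisense genes Hoxaas3 and Hoxd3os1 named above. They were at 0.355 and 0.227 FPKM at D0 and at 0.252 and 0 at D7. The other 9 rows, among them Hotair in cluster c, Evx2 beside cluster d and the rows of the microRNA genes, were listed at 0 in both libraries.

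Hox proteins bind DNA together with TALE homeodomain proteins of the Meis, Pbx and Pknox families. Of 11 TALE genes, all above 0 in both libraries, 4 were lower, 0 were higher and 7 lay within 2.0-fold. Their median log2 ratio was -0.57. Over all genes above 0 in both libraries, 13.2% were lower and 18.5% were higher, shares to set beside each list below. Meis1 had 8.89 FPKM at D0 against 3.91 at D7 (ratio 0.440, interval 0.373 to 0.514), and Pbx3 had 8.04 and 3.14 (ratio 0.391, interval 0.323 to 0.473). Meis2, Meis3, Pbx2, Pbx4, Pknox1 and Pknox2 had ratios from 0.594 to 0.884. Tgif1 and Tgif2, TALE proteins that repress transcription, had ratios of 0.304 (0.263 to 0.347) and 0.322 (0.242 to 0.429).

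Polycomb proteins keep Hox genes silent outside their domains and trithorax proteins keep them active. Of 20 Polycomb genes, 2 were higher, 1 was lower and 17 lay within 2.0-fold, with a median log2 ratio of -0.0025. Both counts lay under the shares over all genes, 18.5% higher and 13.2% lower. Jarid2, a subunit that brings the complex to its targets, had 2.19 FPKM at D0 against 5.42 at D7 (ratio 2.47, interval 2.11 to 2.90). Cbx7, which binds the methylated histone, had 0.601 and 2.06 (ratio 3.43, interval 2.31 to 5.18), and Phc2 had 45.3 and 20.9 (ratio 0.461, interval 0.433 to 0.489). Of 13 trithorax genes and H3K27 demethylases, 12 lay within 2.0-fold and Kdm6a, a demethylase that removes the Polycomb mark, was higher, with 2.25 FPKM at D0 against 6.43 at D7 and a ratio of 2.85 (2.48 to 3.30).

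**Figure D4:**
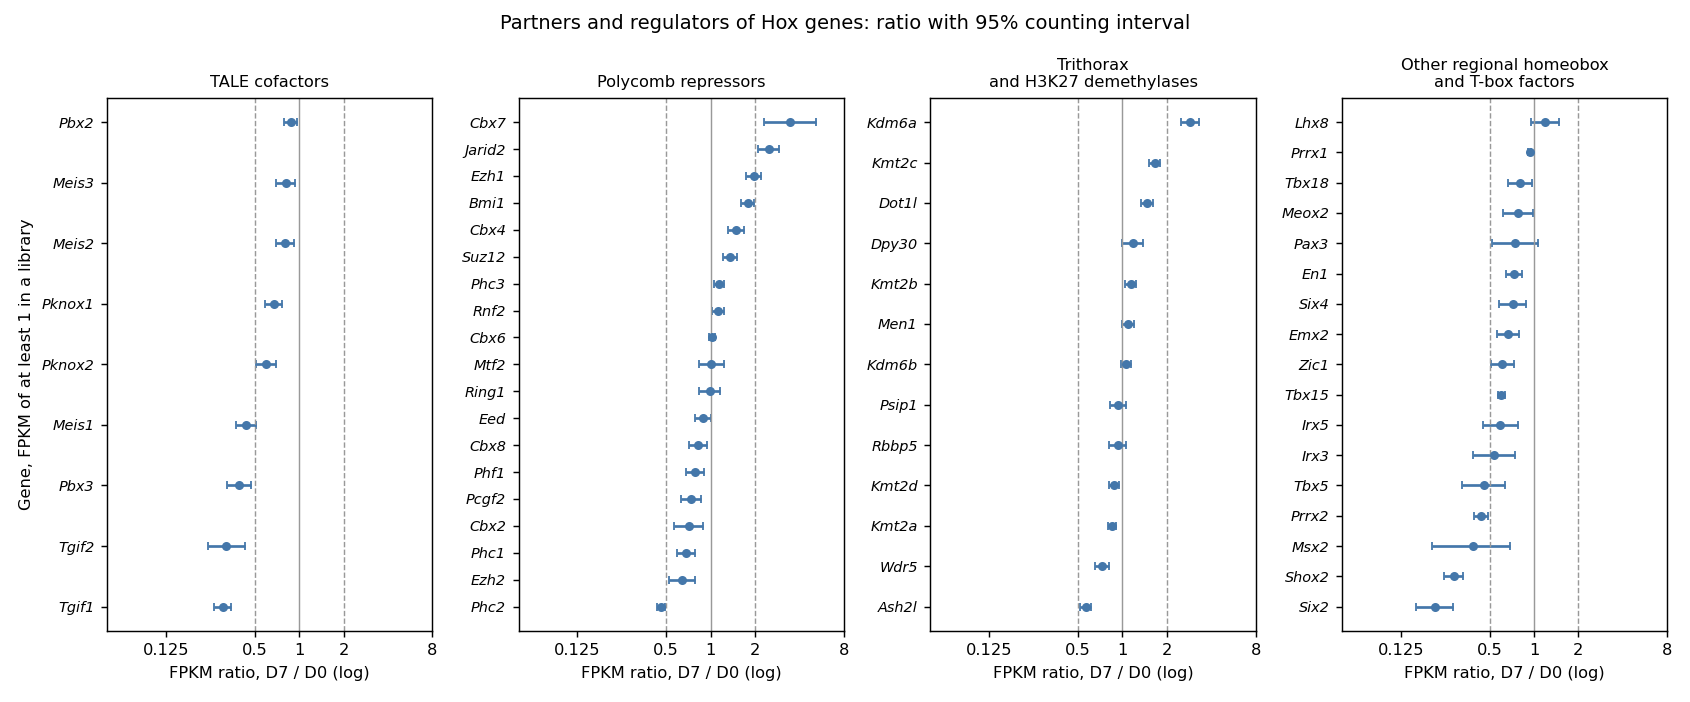
Ratio of FPKM at D7 to D0 (log scale) with exact 95% counting intervals for genes of 4 lists with an FPKM of at least 1 in a library, 1 row per gene. Dashed lines mark 2.0-fold, and the 4 TALE genes under the lower line are Meis1, Pbx3, Tgif1 and Tgif2.

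Among 19 genes that act upstream of Hox genes in the embryo, 13 were above 0 in both libraries. Of these 13, 4 were higher, 3 were lower and 6 lay within 2.0-fold. Another 6 were listed at 0 in a library. The shares over all genes above 0 in both libraries were 18.5% higher and 13.2% lower. Aldh1a1, which makes retinoic acid, an inducer of Hox genes, had 3.92 FPKM at D0 against 156 at D7 (ratio 39.7, interval 33.8 to 46.7). Cyp26b1, which breaks retinoic acid down, had 0.845 and 9.61 (ratio 11.4, interval 8.93 to 14.7). The retinoic acid receptor Rarg had 23.9 and 11.2 (ratio 0.468, interval 0.423 to 0.516), and the ligand Gdf11, which sets posterior Hox domains, had 15.01 and 4.94 (ratio 0.329, interval 0.291 to 0.370). The retinoid receptor Rxrg was at 0 in the D0 library and at 2.05 FPKM in the D7 library. The Cdx genes, which activate central Hox genes in the embryo, were listed at 0 in both libraries.

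Other homeobox and T-box factors with regional expression numbered 33, with 6 listed at 0 in a library. Of the 27 above 0 in both libraries, 8 were lower, 1 was higher and 18 lay within 2.0-fold. The shares over all genes above 0 in both libraries were 13.2% lower and 18.5% higher. The 1 higher gene, Alx1, had 1 fragment at D0 and 2 at D7. The lower Tbx4 had 4 and 1, and the lower Meox1 had 11 and 3. Each of these intervals included 1. The median log2 ratio of the listed factors was -0.48. En1 and Zic1, known from the dermomyotome and from brown fat, had an FPKM of 13.2 and 6.51 at D0 and of 9.58 and 3.97 at D7, with ratios of 0.728 (0.642 to 0.823) and 0.611 (0.510 to 0.729). Tbx15, which patterns the shoulder blade and is active in brown fat, had 47.9 and 28.9 (ratio 0.602, interval 0.568 to 0.637). Shox2, a factor of the proximal limb, had 14.04 and 4.03 (ratio 0.287, interval 0.245 to 0.333). Six2, Prrx2, Tbx5 and Msx2 were also lower, with ratios of 0.213, 0.438, 0.460 and 0.384. The mesenchymal factor Prrx1 had the highest FPKM of this list, with 126 at D0 and 118 at D7.

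Of 14 genes reported as partners or targets of Hox proteins, 12 were above 0 in both libraries. Among these 12, 2 were higher, 1 was lower and 9 lay within 2.0-fold. Another 2 were listed at 0 in a library. The shares over all genes above 0 in both libraries were 18.5% higher and 13.2% lower. The adhesion molecule Ncam1 had 28.6 FPKM at D0 against 3.55 at D7 (ratio 0.124, interval 0.105 to 0.147). The ligand Bmp4 had 1.87 and 5.35 (ratio 2.85, interval 2.17 to 3.77). The other higher gene, Ihh, had 1 fragment at D0 and 2 at D7, with an interval from 0.122 to 139.

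Markers of cell types also differed between the libraries, some lists higher at D7 and others lower. Of 6 adipocyte markers, 5 were higher at D7 and Lep was listed at 0 at D0, and Pparg had a ratio of 33.5, with sums of 34.0 at D0 and 16100 at D7 for the list. Of 6 brown adipocyte markers, Ucp1, Cidea and Elovl3 were listed at 0 at D0 and reached an FPKM of 4.57, 24.4 and 34.2 at D7, 2 others were higher, and Prdm16 lay within 2.0-fold, with sums of 1.25 and 70.7. All 5 proliferation markers were lower, with a summed FPKM of 47.2 at D0 and 11.95 at D7. Of 6 fibroblast and preadipocyte markers, 3 were lower, 1 was higher and 2 lay within 2.0-fold, with sums of 3710 and 1690.

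Markers of other cells were present as well. All 6 macrophage markers were higher, with sums of 130 and 406. Of 5 endothelial markers, 2 were higher, 1 was lower and 2 lay within 2.0-fold, with sums of 1.58 and 2.62. Of 6 skeletal muscle markers, Acta1 was lower and Des and Myh3 lay within 2.0-fold, Myog had 0 fragments at D0 and 1 at D7, and Myod1 and Pax7 were listed at 0 in both libraries, with sums of 51.2 and 4.81. Of 5 neural markers, 2 were higher and Tubb3 was lower, while 2 were at 0 in both, with sums of 102 and 21.9. Of 4 erythroid markers, 3 were at 0 in both and 1 had 1 fragment in each library. The part of these cells in the Hox ratios was not tested.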

How the data were processed

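RNA-Seq was analysed for D0 and D7, with 1 library per stage. Per the paper's methods, mRNA was fragmented, the second strand was degraded, and reads of 90 bases with duplicates and rRNA removed were aligned to mm10 and gene sequences with SOAP2 at up to 5 mismatches. The submitters' processing notes name Bowtie2. Whether counting used strand is not given in the sources used here. The authors deposited 1 FPKM value per gene and library, for 23361 of 27324 rows.

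Ratios of D7 to D0 were computed from the deposited FPKM without a pseudocount, with 2.0-fold as the threshold. Numbers of fragments came from 602 single-exon genes that were at least 600 bp long. With 179 bp at D0 and 182 bp at D7 taken from each length, each of the 79 and 90 values at or under 20 fragments lay within 0.1 of an integer. For Hox genes the named transcript's length was used, fitted to the deposited locus in most genes with a locus of their own. With these lengths, 12 of 14 low values were whole. A count of up to 3 fragments was taken as a limit. Loci are those of GENCODE M21, and promoters those of RefSeq (GRCm38.p6). Sequences were compared between transcripts without gaps.

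The members and lists were chosen with earlier results of these data known. Every Hox gene was accounted for, and those with an FPKM of at least 1 in a library were described singly. Genes of other lists were named past 2.0-fold with an FPKM of at least 1, or as Meis, Pbx or Pknox genes, Zic1, En1, Tbx15, Tbx5 or Shox2, and markers in counts with examples. Prrx1 and Rxrg were named after their values were seen, and so were Alx1, Tbx4, Meox1 and Ihh, for their few fragments. A few genes and sequences are not reported here. Alternatives were pseudocounts, a floor, other scalings, filters and thresholds. The scripts were tested on simulated data. Software was scipy 1.17.1, pandas 2.3.3, numpy 2.4.6 and matplotlib 3.10.9 under Python 3.11.15.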

Additional observations from a re-analysis of the deposited data

How the results depend on the processing

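No paired analysis was possible because each stage has 1 library. The count of 9 lower Hox genes became 4 with a pseudocount of 1, 14 at 1.5-fold, 0 at 4.0-fold, and 16 with a floor of 0.01 and division of each library by its median, a scaling that moved the median log2 ratio of all genes to -0.35 and that of the Hox genes to -0.76. The count of 3 higher Hox genes became 0 with pseudocounts of 0.1 and 1, with an FPKM of at least 1 and with at least 10 fragments, 1 with an FPKM of at least 0.1 and at 4.0-fold, and 5 at 1.5-fold. The median log2 ratio of -0.53 became -0.078 with a pseudocount of 1, a setting that includes genes at 0. Of 40 values under the alternatives, 28 moved by at most 1.5 times (counts) or by less than the counting error (median), and no called gene changed direction. The Hox genes under an FPKM of 1 in both libraries, other than Hoxc13, rest on at most 6 fragments.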

Other observations

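Other homeobox families differed in how many of their rows reached an FPKM of 1. Of 30 rows of Rhox genes, a family on the X chromosome that is known from the gonads and placenta, 2 were above 0 in a library and 0 reached an FPKM of 1. Of 14 Nkx rows 1 reached an FPKM of 1, of 16 Pou rows 2, of 10 Pax rows 1, of 9 Dlx rows 1 and of 8 Lhx rows 2, although 9 of the Pou rows, 5 of the Pax rows and 6 of the Dlx rows were above 0 in a library. Of 6 Irx genes 4 reached an FPKM of 1, with Irx1 at 8.53 at D0 and 6.49 at D7. Lhx8, known from the developing teeth and forebrain and also described in brown fat, had 4.09 FPKM at D0 against 4.85 at D7 (ratio 1.18). Its relative Lhx6 had 2.02 and 0.449 (ratio 0.222). These families were chosen after their values were seen.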
